A study of Mus musculus with 24 samples.

Results

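The 10 genes described here encode the insulin-like growth factor (IGF) axis: the ligands Igf1 and Igf2, the receptors Igf1r and Igf2r, and the secreted binding proteins Igfbp2 to Igfbp7. They were taken by symbol from a count table of 25941 genes, and 10 of 10 passed the filter on low counts that left 14451 genes to test. Igfbp5 was picked because its level fell with both drugs in these libraries. Its values against control are therefore given as a description, without a test. The other 9 are the remaining members of the axis by name.

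Aortic RNA was compared between mice fed an inhibitor of cyclooxygenase and mice fed chow without drug. All groups were wild-type C57BL/6 male mice, 10 to 12 weeks of age, and the tissue was thoracic aorta taken at zeitgeber time 11. The 3 groups received celecoxib at 100 mg/kg/day in chow, rofecoxib at 50 mg/kg/day in chow, or normal chow (control), each for 3 weeks. Each group had 8 libraries of polyA RNA. The doses of the drugs differ, so a difference between the drugs is also a difference between doses. The submitters describe the libraries as biological replicates, but no label ties a library to an animal. The p-values measure the spread between these libraries, which may be partly technical. The numbers in the library titles run in a separate block for each group, with the controls farthest off. What these numbers stand for is not given. A difference in handling that followed the blocks could not be told apart from an effect of the drugs.

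Library totals lay between 21652432 and 21687906 counts. Levels are given as CPM, counts relative to the library total after scaling with TMM factors. Genes that define the aortic wall were present in every group: in controls Myh11, the smooth muscle myosin heavy chain, averaged 10231 CPM, Acta2, smooth muscle actin, 16024 CPM, Pecam1, an endothelial adhesion molecule, 295 CPM, and Dcn, the fibroblast proteoglycan decorin, 1645 CPM. Control library 6 stood apart in its fat markers, with a mean log2 CPM of 8.68 over 12 adipocyte genes against at most 7.76 in the other controls. Rofecoxib library 2 had the lowest fibroblast and macrophage marker levels of its group, with a mean log2 CPM of 7.95 and 2.93.

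IGF1 and IGF2 bind the receptor tyrosine kinase IGF1R, which signals through IRS proteins, PI3K and AKT to growth and survival, while IGF2R, the mannose 6-phosphate receptor, takes up IGF2 for degradation without such signalling. The binding proteins hold the ligands in blood and in the matrix, and they can block or prolong their action until proteases such as PAPP-A release the ligand. In arteries, smooth muscle cells make both IGF1 and several binding proteins, and IGF signalling is known for its part in smooth muscle growth and survival.

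The promoter windows of Igfbp5 and Igfbp6 are shown because Igfbp5 is the gene that was picked and Igfbp6 the other member called against control. Each line holds the 250 bases before the RefSeq start site on GRCm38.p6, 5′ to 3′ on the gene's strand. Igfbp5 is on the minus strand (chr1:72874866-72875115) and Igfbp6 on the plus strand (chr15:102143936-102144185). Capitals in the first mark GCCNNNGGC, the letters of the AP-2 motif, and TATTTAA, a variant of the TATA box. Capitals in the second mark TATAAA read on the opposite strand, 148 to 143 bases before the start site.
Igfbp5: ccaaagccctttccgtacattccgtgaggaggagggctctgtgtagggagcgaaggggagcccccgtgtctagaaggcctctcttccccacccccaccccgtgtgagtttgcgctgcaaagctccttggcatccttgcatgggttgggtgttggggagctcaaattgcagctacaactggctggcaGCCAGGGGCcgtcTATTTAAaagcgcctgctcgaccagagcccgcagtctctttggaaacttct
Igfbp6: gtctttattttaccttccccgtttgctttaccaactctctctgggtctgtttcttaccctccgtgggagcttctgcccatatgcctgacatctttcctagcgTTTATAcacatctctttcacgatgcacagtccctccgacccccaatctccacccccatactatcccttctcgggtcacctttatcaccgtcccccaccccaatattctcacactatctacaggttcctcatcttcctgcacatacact
Searched on both strands of 32851 RefSeq promoters cut to the same length, TATTTAA was present in 4.18%, TATAAA in 12.4% and GCCNNNGGC in 13.7%. Of the 10 genes, all with an entry and with 14 promoters among them, only Igfbp5 held TATTTAA, 51 to 45 bases before the start site. GCCNNNGGC was found in Igf2 and Igfbp5, and TATAAA in Igfbp4 and Igfbp6. A match of letters is not evidence of binding. The Igfbp5 window had a GC content of 58.8% and that of Igfbp6 49.6%.

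Compared per length, Igfbp7 was the most abundant transcript of the axis in control aorta. Its level averaged 2098 ± 261 CPM per kilobase (SD, n = 8), followed by Igfbp5 at 176 ± 18.3, Igfbp4 at 119 ± 14.0 and Igfbp6 at 75.4 ± 13.5. Igfbp7 encodes a secreted protein of the vessel wall that binds IGFs weakly. Igfbp2 (17.2 ± 12.8), Igf2r (12.9 ± 0.76), Igf2 (9.10 ± 2.36) and Igf1 (6.54 ± 0.84) came next, and Igfbp3 (2.72 ± 0.96) and Igf1r (1.501 ± 0.17) were lowest. The ranges of the 8 control libraries overlapped between Igfbp5 and Igfbp4, Igfbp2 and Igf2r, Igf2r and Igf2, Igf2 and Igf1, and Igfbp3 and Igf1r. They did not overlap between Igfbp7 and Igfbp5, Igfbp4 and Igfbp6, Igfbp6 and Igfbp2, or Igf1 and Igfbp3. These levels used the longest protein-coding transcript of each gene. With the median transcript length Igfbp7 was still first, at 2174 CPM per kilobase, but Igfbp4 (596) stood above Igfbp5 (206), and Igf2r (143) above Igfbp6. Igf2 (44.9) and Igf1 (33.7) then stood above Igfbp2 (22.7), and Igf1r (8.57) above Igfbp3 (3.19).

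**Figure D1:**
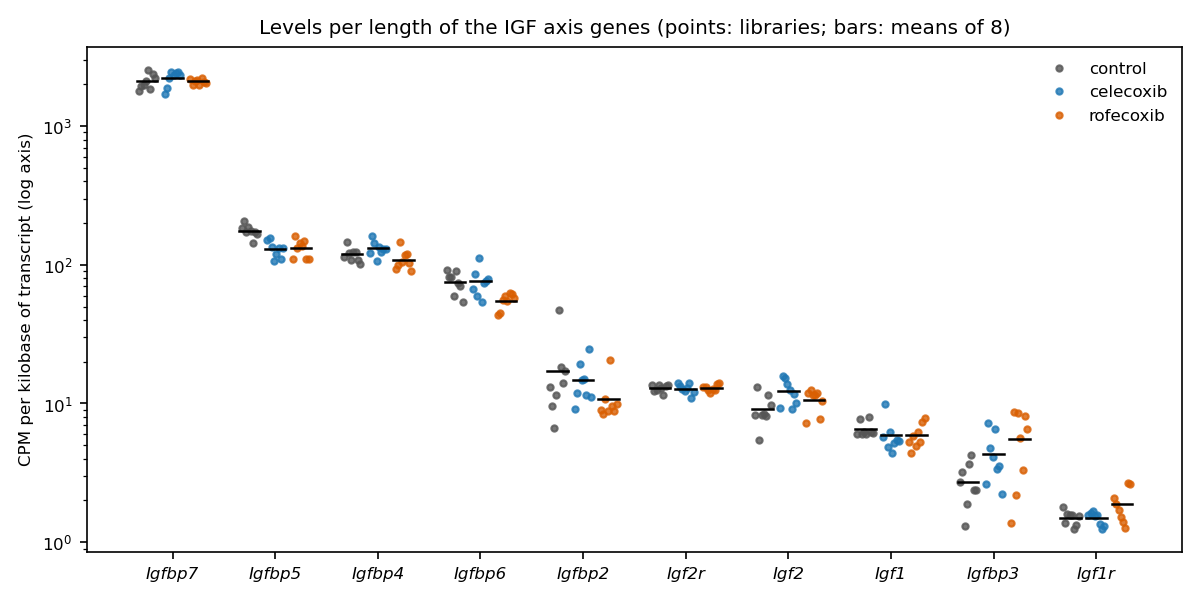
Level of each gene in CPM per kilobase of its longest protein-coding transcript, on a log axis; each point is a library and each bar the mean of 8. Igfbp7 is highest in all 3 groups, and the means of Igfbp5 are lower with either drug (130.0 and 132) than in controls (176).

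Of the summed level per length of the 6 binding proteins, Igfbp7 made up 84.2% ± 2.07 in controls, 86.0% ± 2.38 with celecoxib and 87.0% ± 1.36 with rofecoxib (SD, n = 8 each). Igfbp5 made up 7.15% ± 1.02, 5.14% ± 1.28 and 5.469% ± 0.84. The summed level itself was 2489 ± 266 CPM per kilobase in controls, 2586 ± 271 with celecoxib and 2407 ± 88.1 with rofecoxib, so the means lay within 1 SD of the controls. No test was made on these shares, which used the longest protein-coding transcript of each gene. They depend on that choice: with the median transcript length, Igfbp4 stood at 596 and Igfbp7 at 2174 CPM per kilobase in controls.

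Each drug was compared with control and the drugs with each other, and a gene was called at an adjusted p under 0.05. With celecoxib against control 1 of the 10 genes was called, lower, which is Igfbp5 itself; 1.41% of all tested genes were called, 0.913% higher and 0.498% lower. With rofecoxib against control 2 were called, both lower, Igfbp5 and Igfbp6; 5.30% of all tested genes were called, 2.43% higher and 2.87% lower. Igfbp5 was picked on these contrasts, so its calls are no evidence, which leaves 0 of 9 with celecoxib and 1 of 9 with rofecoxib. With celecoxib, 1 of these 9, Igf2, had an unadjusted edgeR p under 0.05, and DESeq2's Wald test called 0 of them. With rofecoxib, 4 of the 9 had an unadjusted edgeR p under 0.05 (Igfbp6, Igfbp3, Igf1r and Igfbp2), and DESeq2 called 2, Igfbp6 and Igfbp3. DESeq2 called 481 of all 14451 tested genes with celecoxib and 1575 with rofecoxib. How many of all tested genes had an unadjusted p under 0.05 was not counted. Such counts, here and for the lists below, therefore have no background beside them. Between the drugs 3 of 10 were called by edgeR, Igfbp6 and Igfbp4 higher and Igf1r lower with celecoxib, near the background of 22.7% of all tested genes, 11.5% higher and 11.2% lower. The median log2 fold change of the 10 was -0.00, -0.06 and 0.04 in the 3 comparisons, beside -0.01, -0.00 and -0.00 over all genes. The 10 include Igfbp5, so the medians against control rest in part on the values used to pick it. No member had groups that were fully apart in any comparison, as was the case for 0.298%, 0.567% and 1.67% of all tested genes.

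**Figure D2:**
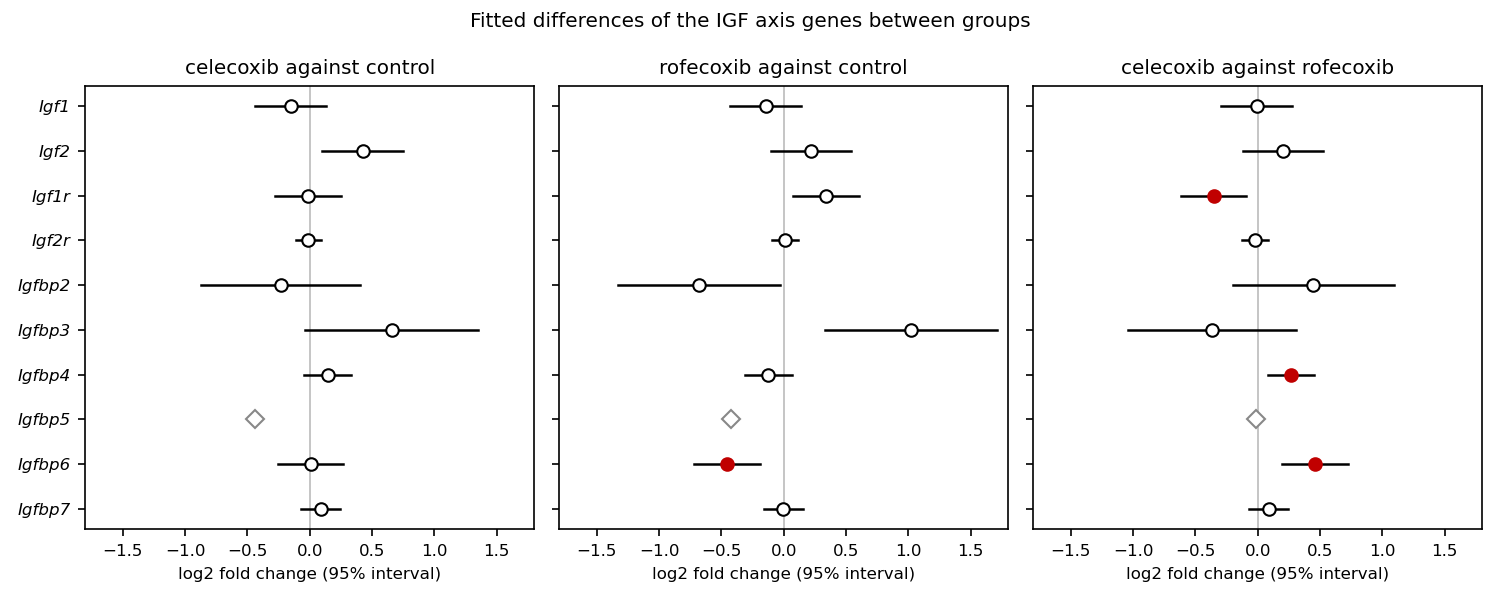
Log2 fold change on the x axis for each gene in the 3 comparisons; circles with lines are estimates with 95% intervals from edgeR, red where the adjusted p was under 0.05. Grey diamonds are Igfbp5, shown without interval because the gene was picked on its values against control (-0.44 and -0.42), of which the value between the drugs (-0.02) is the difference.

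Neither ligand was called with either drug. Igf1, which in adults is made mainly by the liver and also by vessel walls, ranged from 42.2 to 56.5 CPM in controls (median 43.3), from 30.8 to 70.0 with celecoxib (median 38.2) and from 31.1 to 55.6 with rofecoxib (median 39.4). Below every control lay 6 celecoxib and 5 rofecoxib libraries, but celecoxib library 2 was the highest of all 24. The log2 fold changes were -0.15 ± 0.14 (SE) with celecoxib and -0.14 ± 0.14 with rofecoxib (edgeR adjusted p = 0.602 and 0.521). Without celecoxib library 2 the former was -0.30 (edgeR adjusted p = 0.133).

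Igf2, the imprinted fetal growth factor, ranged from 25.7 to 61.9 CPM in controls (median 39.3), from 43.3 to 74.1 with celecoxib (median 57.1) and from 34.0 to 59.3 with rofecoxib (median 54.6). Each of the 8 celecoxib libraries was above the control mean of 43.0 CPM, while the ranges overlapped. The log2 fold change of 0.42 ± 0.16 with celecoxib did not pass (edgeR adjusted p = 0.161), nor did 0.22 ± 0.16 with rofecoxib (edgeR adjusted p = 0.365). The ratio of Igf1 to Igf2 per length was 0.76 ± 0.20 in controls, 0.49 ± 0.12 with celecoxib and 0.59 ± 0.20 with rofecoxib (SD, n = 8 each). H19, the noncoding RNA next to Igf2 on the imprinted domain, was low at 1.04 ± 0.44, 1.24 ± 0.63 and 1.65 ± 0.84 CPM and was not called (edgeR adjusted p = 0.725 with celecoxib and 0.181 with rofecoxib).

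The signalling receptor gene Igf1r (ENSMUSG00000005533), on mm9 chromosome 7 from 75097511 to 75371686, differed between the drugs. It ranged from 14.1 to 20.3 CPM in controls (median 17.7), from 14.3 to 19.2 with celecoxib (median 17.7) and from 14.4 to 30.4 with rofecoxib (median 20.6). Of the rofecoxib libraries, 4 were above every control, and libraries 7 and 8, at 30.4 and 30.2 CPM, stood highest. Igf1r was lower with celecoxib than with rofecoxib (log2 fold change -0.35 ± 0.13, edgeR adjusted p = 0.0472), with 8 of 8 celecoxib libraries below the rofecoxib mean. Against control the value was 0.34 ± 0.13 with rofecoxib, which did not pass (edgeR adjusted p = 0.0934), and -0.01 ± 0.13 with celecoxib (edgeR adjusted p = 0.966). The difference between the drugs was lost in 15 of 24 fits that left out 1 library, with an edgeR adjusted p of up to 0.122 without rofecoxib library 8, and after correction for transcript GC content (-0.32, edgeR adjusted p = 0.0953). The libraries whose removal ended it were controls 2, 3, 4, 5, 7 and 8, celecoxib 4 to 8 and rofecoxib 1, 2, 7 and 8. It was also lost without control 6 and rofecoxib 2 (edgeR adjusted p = 0.0565), with a fit of these groups alone (0.0735), without the filter on low counts (0.0759) and with the replicate block (0.0700).

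Igf2r hardly varied. Its level was 114.7 ± 6.77 CPM in controls, 113.8 ± 9.13 with celecoxib and 115 ± 6.39 with rofecoxib (SD, n = 8 each), and all 24 libraries lay between 97.4 and 125 CPM. The 95% interval of the log2 fold change was -0.11 to 0.09 with celecoxib and -0.09 to 0.11 with rofecoxib. The ratio of Igf2r to Igf1r per length was 8.66 ± 0.76 in controls, 8.67 ± 0.87 with celecoxib and 7.23 ± 1.66 with rofecoxib. Its size depends on the longest transcripts used, as median lengths put Igf2r at 143 and Igf1r at 8.57 CPM per kilobase in controls.

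**Figure D3:**
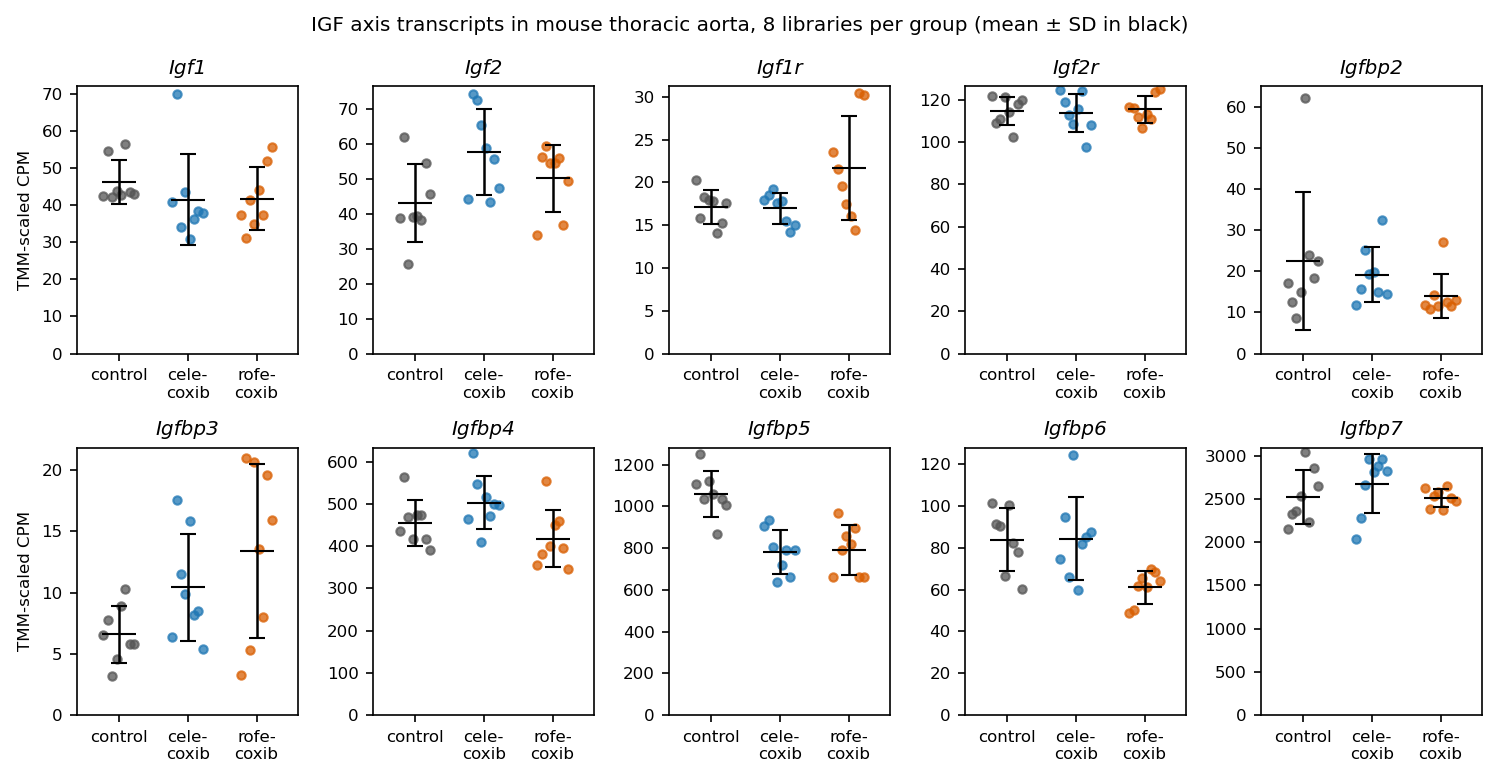
TMM-scaled CPM of the 10 genes, 1 panel a gene with its own axis from 0; points are libraries, black bars the mean ± SD of 8. In the Igfbp5 panel 7 of 8 controls lie above every library of either drug, and in the Igfbp6 panel all 8 rofecoxib libraries lie below the control mean.

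Igfbp5 encodes a binding protein that attaches to extracellular matrix and is made by smooth muscle cells; the gene (ENSMUSG00000026185) lies on mm9 chromosome 1 from 72904304 to 72921660. Its level ranged from 865.5 to 1251 CPM in controls (median 1046), from 637 to 933 with celecoxib (median 791) and from 661 to 967 with rofecoxib (median 806). Of the controls, 7 of 8 were above every celecoxib library and above every rofecoxib library. The exception was control library 6 at 865.5 CPM, and the next control was at 1008 CPM. Of the controls, library 6 had the highest white fat, brown fat and Schwann cell marker levels and the lowest smooth muscle and fibroblast marker levels. Whether any of these bears on its Igfbp5 level was not tested. Mean levels were 1059.8 ± 109.6 CPM in controls, 781 ± 105 with celecoxib and 790.0 ± 118 with rofecoxib (SD, n = 8 each). The levels with celecoxib and rofecoxib were 0.74 and 0.75 times those in controls, log2 fold changes of -0.44 ± 0.09 and -0.42 ± 0.09. These are the values for which the gene was picked, and both drugs were set against the same controls.

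Between the drugs the log2 fold change, celecoxib against rofecoxib, was -0.02, which is the difference of these values and so is also a description. With any 1 library left out, the descriptive values against control stayed between -0.48 and -0.40 for celecoxib and between -0.47 and -0.38 for rofecoxib, and with correction for transcript GC content both were -0.43. Without control 6 and rofecoxib 2 they were -0.48 and -0.51. All of these rest on libraries used to pick the gene, so how little they moved is no evidence for the fall.

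In bulk tissue, fewer cells of a type and less RNA per cell cannot be told apart, so marker levels are given beside the result. Of 16 smooth muscle markers, 5 rose with celecoxib and 4 with rofecoxib, beside 0.913% and 2.43% of all tested genes, and none fell. Their mean log2 CPM was 10.75 ± 0.12 in controls, 10.90 ± 0.11 with celecoxib and 10.93 ± 0.09 with rofecoxib (SD, n = 8 each), and no marker was at 0. None of 14 endothelial markers was called by edgeR in any comparison; 0 with celecoxib and 1 with rofecoxib had an unadjusted p under 0.05, and DESeq2 called 0 and 1. Fat and macrophage markers had medians below 0 with both drugs. Of 12 brown adipocyte markers none was called against control by edgeR; 6 with celecoxib and 4 with rofecoxib had an unadjusted p under 0.05, DESeq2 called 1 and 0, and the median log2 fold changes were -0.75 and -0.43. Their mean log2 CPM ran from 3.25 to 5.78 in controls, from 2.43 to 4.45 with celecoxib and from 3.61 to 4.38 with rofecoxib. Ucp1, the uncoupling protein that defines brown fat, was at 230.1 ± 258 CPM in controls, 94.1 ± 88.9 with celecoxib and 83.6 ± 38.7 with rofecoxib (SD, n = 8 each). Of 12 white adipocyte markers none was called against control by edgeR or DESeq2; 2 and 1 had an unadjusted p under 0.05, and the medians were -0.38 and -0.46. Their mean log2 CPM ran from 5.75 to 8.68, from 6.09 to 7.37 and from 6.16 to 7.72 in the same order. The macrophage medians were -0.19 and -0.46, and no marker of these lists was at 0 in all libraries. Once group means were removed, Igfbp5 had an r of at most 0.33 in size with every marker score over the 24 libraries. It was 0.12 with smooth muscle, 0.13 with fibroblast, -0.01 with brown adipocyte, -0.19 with white adipocyte, -0.13 with macrophage and 0.33 with endothelial markers (permutation adjusted p = 0.509 for the last). Within controls, celecoxib and rofecoxib separately, r could change sign. For brown adipocyte markers it was -0.56, 0.66 and -0.69, and for fibroblast markers 0.72, 0.12 and -0.20. For Schwann cell markers it was -0.67, -0.17 and 0.59, and for skeletal muscle markers 0.13, -0.76 and 0.47. For endothelial markers it kept its sign, at 0.05, 0.27 and 0.48. Without the 2 libraries farthest from the median score, r was 0.38 with fibroblast and 0.35 with Schwann cell markers. The part of cell composition in the group difference was not tested.

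Igfbp6 fell with rofecoxib, was not called with celecoxib, and differed between the drugs. It encodes a binding protein with a preference for IGF2 over IGF1; the gene (ENSMUSG00000023046) lies on mm9 chromosome 15 from 101974591 to 101980144. Its level ranged from 60.4 to 102 CPM in controls (median 86.2), from 59.7 to 124 with celecoxib (median 83.6) and from 48.6 to 69.9 with rofecoxib (median 62.8). Every rofecoxib library was below 6 of 8 controls and below 6 of 8 celecoxib libraries. The log2 fold change for rofecoxib against control was -0.45 ± 0.13 (0.73 times, lower in 8 of 8 libraries, edgeR adjusted p = 0.0428). It was 0.01 ± 0.13 for celecoxib against control (edgeR adjusted p = 0.981), with a 95% interval of -0.25 to 0.27. Igfbp6 was higher with celecoxib than with rofecoxib by 0.46 ± 0.13 (edgeR adjusted p = 0.0141, 7 of 8 celecoxib libraries above the rofecoxib mean).

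Correction for transcript GC content, which is 60.7% for Igfbp6, ended both calls, at -0.29 against control (edgeR adjusted p = 0.254) and 0.25 between the drugs (edgeR adjusted p = 0.265). The fall against control was lost in 12 of 24 fits that left out 1 library, with the highest edgeR adjusted p of 0.0920 without control 5, and without control 6 and rofecoxib 2 together (-0.42, edgeR adjusted p = 0.104). It was also lost without the filter on low counts and with the replicate block (edgeR adjusted p = 0.0718 and 0.0666). The libraries whose removal ended it were controls 1, 2, 3, 5, 6 and 7, celecoxib 6 and rofecoxib 1, 2, 3, 7 and 8. The difference between the drugs was kept in 24 of 24 fits, with an edgeR adjusted p of at most 0.0311.

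Fibroblast and macrophage markers also fell with rofecoxib. Of 18 fibroblast markers, 6 fell with rofecoxib, among them Col1a1 and Pcolce, none rose, and their median log2 fold change was -0.29; with celecoxib none was called by edgeR or DESeq2, 0 had an unadjusted p under 0.05, and the median was 0.02. Between the drugs, 9 were higher with celecoxib and none lower. Their mean log2 CPM ran from 8.42 to 8.89 in controls, from 8.43 to 8.92 with celecoxib and from 7.95 to 8.58 with rofecoxib. Of 15 macrophage markers, 3 fell with rofecoxib (Cd14, C1qc and Fcer1g) and none rose, 13 had an unadjusted edgeR p under 0.05, DESeq2 called 8, and the median log2 fold change was -0.46. With celecoxib the macrophage median was -0.19, where Igfbp6 was at 0.01; edgeR and DESeq2 called none of the 15, and 1 had an unadjusted p under 0.05. Their mean log2 CPM ran from 3.78 to 4.42, from 3.33 to 4.40 and from 2.93 to 4.04 in the same order. Between the drugs, Cd163 alone of these 15 was called, higher with celecoxib. No marker of either list was at 0. Over all tested genes, 2.87% were called lower with rofecoxib than in controls, and 11.5% higher with celecoxib than with rofecoxib. With GC correction, all genes called numbered 183 in place of 766 for rofecoxib against control. Between the drugs they numbered 1326 in place of 3275. The marker calls, here and for smooth muscle above, are given without GC correction.

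Among libraries of 1 group, Igfbp6 was high where these markers were high. After removal of group means, its log2 CPM correlated with the fibroblast score at r = 0.79 and rho = 0.84 (permutation p = 1e-05 for both, the smallest these permutations can give; adjusted p = 0.0004 and 0.0008). With the macrophage score r was 0.84 (permutation p = 1e-05, adjusted p = 0.0004) and rho 0.76 (permutation p = 2e-05, adjusted p = 0.0008). Within controls, celecoxib and rofecoxib separately, r was 0.71, 0.88 and 0.89 for fibroblast markers and 0.85, 0.94 and 0.89 for macrophage markers. Without the 2 libraries farthest from the median score, r was 0.77 and 0.84. The part of these cells in the group difference of Igfbp6 was not tested.

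**Figure D4:**
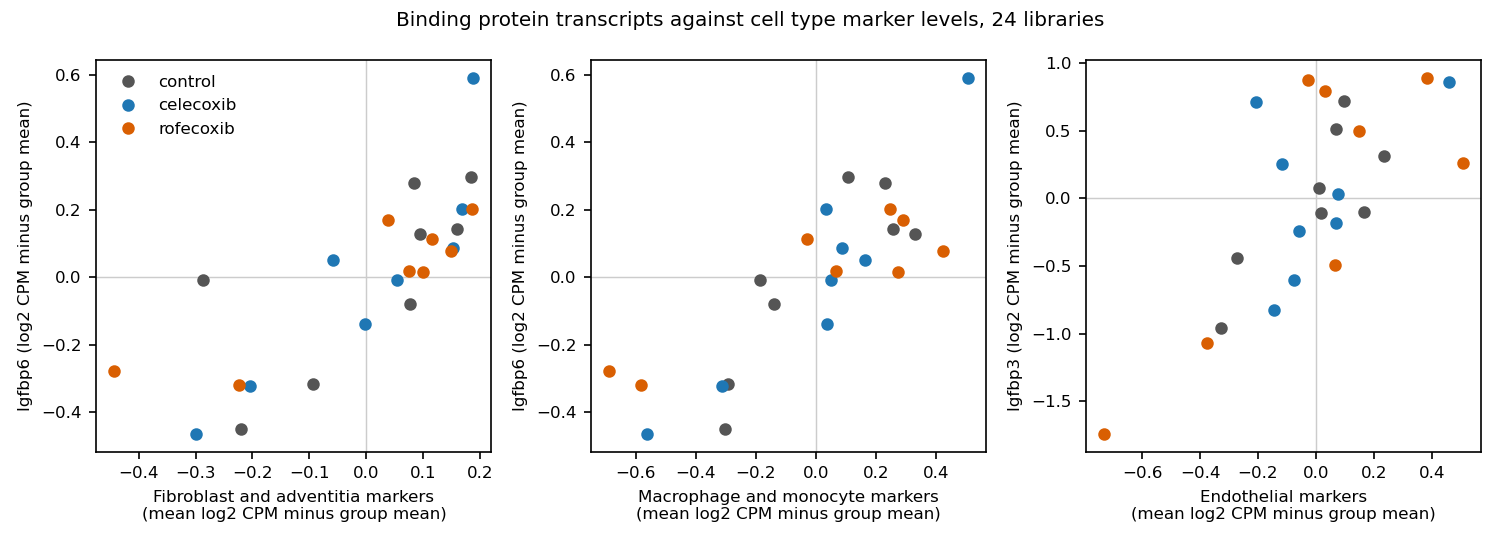
Group-centred log2 CPM of Igfbp6 (left and middle) and Igfbp3 (right) on the y axis against the group-centred mean log2 CPM of fibroblast, macrophage and endothelial markers on the x axis; each point is 1 of 24 libraries, coloured by group. All 3 clouds rise from lower left to upper right, with r of 0.79, 0.84 and 0.72.

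Igfbp4 was higher with celecoxib than with rofecoxib. It encodes a binding protein that inhibits IGF action until PAPP-A cleaves it, and the gene (ENSMUSG00000017493) lies on mm9 chromosome 11 from 98902356 to 98914171. Its level ranged from 390.0 to 562 CPM in controls (median 453), from 409.7 to 619.7 with celecoxib (median 498) and from 346.5 to 555 with rofecoxib (median 397). Of the celecoxib libraries, 7 of 8 were above the rofecoxib mean, and rofecoxib library 3, at 555 CPM, was within the celecoxib range. The log2 fold change between the drugs was 0.27 ± 0.09 (edgeR adjusted p = 0.0378). Against control it was 0.15 ± 0.09 with celecoxib and -0.12 ± 0.09 with rofecoxib (edgeR adjusted p = 0.419 and 0.394). The difference between the drugs was lost in 10 of 24 fits that left out 1 library (edgeR adjusted p of up to 0.0912, without rofecoxib 8), and with GC correction (0.18, edgeR adjusted p = 0.203). It was also lost without control 6 and rofecoxib 2 (edgeR adjusted p = 0.0707), with library totals in place of TMM (0.0562), without the filter on low counts (0.0548) and with a fit of these groups alone (0.0567). The single libraries whose removal ended it were celecoxib 2, 3, 5, 7 and 8 and rofecoxib 1, 2, 4, 7 and 8. The fibroblast markers, higher with celecoxib than with rofecoxib as given above, had a group-centred r of 0.21 with Igfbp4 and -0.08 with Igf1r (permutation adjusted p = 0.909 and 0.988), and their part in either difference was not tested.

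Igfbp3, the main IGF carrier of blood plasma, had the largest coefficient of variation of the 10 genes with either drug, 41.8% with celecoxib and 52.8% with rofecoxib. It ranged from 3.16 to 10.3 CPM in controls (median 6.17), from 5.42 to 17.6 with celecoxib (median 9.21) and from 3.31 to 21.0 with rofecoxib (median 14.8). Of the rofecoxib libraries, 5 were above every control, and the lowest was as low as the lowest controls. The log2 fold change was 1.02 ± 0.33 with rofecoxib (6 of 8 libraries above the control mean, edgeR adjusted p = 0.0646) and 0.66 ± 0.34 with celecoxib (6 of 8, edgeR adjusted p = 0.315). Neither passed, although rofecoxib passed without rofecoxib library 1 (1.16, edgeR adjusted p = 0.0381) and by DESeq2's Wald test (1.02, DESeq2 adjusted p = 0.0334).

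Within groups, Igfbp3 correlated with endothelial markers. After removal of group means r was 0.72 (permutation p = 0.00071, adjusted p = 0.0142) and rho 0.64 (permutation adjusted p = 0.0492). It was 0.79 in controls, 0.45 with celecoxib and 0.79 with rofecoxib, and 0.65 over all libraries without rofecoxib 1 and 5. Endothelial scores spread more with rofecoxib, from 4.91 to 6.15, than in controls, from 5.27 to 5.84, and their part in the values of Igfbp3 was not tested. Igfbp3 also correlated with Schwann cell markers (r = 0.60, permutation adjusted p = 0.0275), where rho did not pass (0.61, permutation adjusted p = 0.0538).

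Igfbp2, a binding protein that also contacts integrins, had a median of 17.8 CPM in controls (8.66 to 62.2), 17.4 with celecoxib (11.9 to 32.4) and 12.2 with rofecoxib (10.9 to 27.0). Control library 5 and rofecoxib library 5 lay far above the others of their groups. The log2 fold changes were -0.23 ± 0.31 with celecoxib and -0.68 ± 0.31 with rofecoxib (edgeR adjusted p = 0.742 and 0.164). Igfbp2 is the neighbour of Igfbp5, ending 5053 bases from it on mm9 chromosome 1. Within 500 kilobases of Igfbp5, the table held 7 other genes, of which 4 were tested: Igfbp2, Xrcc5, Smarcal1 and Rpl37a. None of these 4 was called against control with either drug, and Xrcc5, a DNA repair gene, was lower with celecoxib than with rofecoxib (-0.29 ± 0.07, edgeR adjusted p = 0.0084).

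Igfbp7 had a median of 2446 CPM in controls (2148 to 3044), 2818 with celecoxib (2031 to 2963) and 2521 with rofecoxib (2368 to 2648). The rofecoxib libraries lay closest together. The log2 fold changes were 0.09 ± 0.08 with celecoxib and -0.00 ± 0.08 with rofecoxib (edgeR adjusted p = 0.576 and 0.992), with 95% intervals of -0.07 to 0.24 and -0.16 to 0.15.

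Few pairs of members passed a test of varying together within groups, which does not show that the others vary apart. Of 45 pairs, 1 passed on group-centred log2 CPM over 24 libraries: Igf1r with Igf2r, at r = 0.62 (permutation p = 0.00024, adjusted p = 0.0108) and rho = 0.63 (permutation p = 0.00139, adjusted p = 0.0626). Within controls, celecoxib and rofecoxib r was 0.69, 0.51 and 0.88. Without rofecoxib 6 and 7, the 2 libraries farthest from the median of Igf1r, r was 0.61, which did not pass over 45 pairs (permutation adjusted p = 0.0688). The r of the 45 pairs ran from -0.40 (Igfbp5 with Igfbp7) to 0.62, with a median of 0.05. Igfbp5 was nearest to Igfbp4, at r = 0.44 (permutation adjusted p = 0.393). With GC correction Igf1r with Igf2r again passed alone (r = 0.64, permutation adjusted p = 0.0126), but other pairs moved. Igf1r with Igfbp7 went from -0.18 to 0.63 (permutation adjusted p = 0.0603 after correction). Igf2r with Igfbp7 went from -0.25 to 0.49, and Igfbp2 with Igfbp7 from 0.46 to 0.09.

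Of 80 relations between a member and a cell type score, 5 passed by r, and 4 of them are given above. The remaining one was Igf1 with white adipocyte markers (r = 0.58, permutation p = 0.00057, adjusted p = 0.0142; rho = 0.62, permutation adjusted p = 0.0492). Within controls, celecoxib and rofecoxib r was 0.75, 0.63 and 0.70, and without controls 4 and 6, which had the lowest and highest fat markers, it was 0.64.

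**Figure D5:**
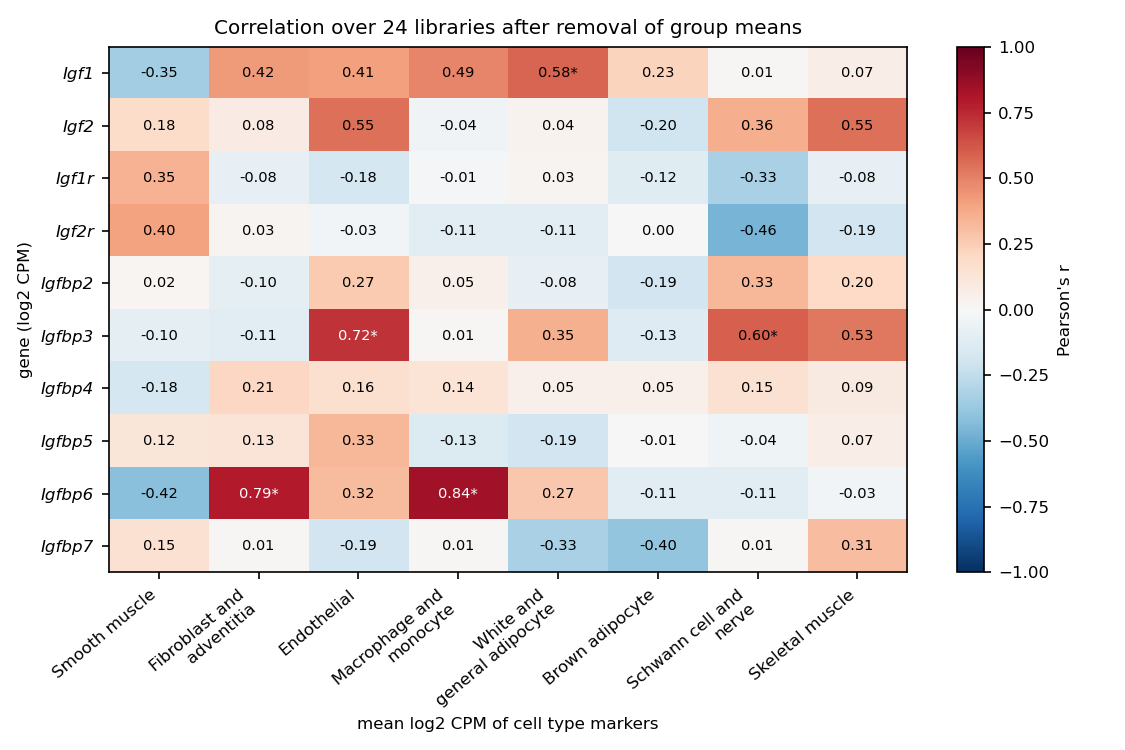
Pearson's r over 24 libraries between each gene's log2 CPM (rows) and the mean log2 CPM of the markers of a cell type (columns), both after removal of group means; red is positive, blue negative, and an asterisk marks a permutation adjusted p under 0.05 over 80 relations. The darkest cells are Igfbp6 with macrophage (0.84) and fibroblast (0.79) markers, while no cell of the Igfbp5 row passes 0.33 in size. Within single groups the r of Igfbp5 could be larger, as given above.

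Of all tested genes, edgeR called 1.41% with celecoxib, 5.30% with rofecoxib and 22.7% between the drugs. These shares are the background for the calls in the lists below. Of 8 tested genes that carry IGFs, bind their mRNA or share their receptors, none was called with celecoxib by edgeR or DESeq2 (1 had an unadjusted edgeR p under 0.05). With rofecoxib 1 rose and 1 fell (4 had an unadjusted p under 0.05 and DESeq2 called 2). Insr, the insulin receptor, which also forms hybrids with IGF1R, was at 135 ± 11.7 CPM in controls and rose to 164 ± 19.8 (SD, n = 8 each), a log2 fold change of 0.28 ± 0.08 that passed (edgeR adjusted p = 0.0400). It did not pass in 8 of 24 leave-one-out fits or with GC correction (edgeR adjusted p = 0.0807). Lrp1, an endocytic receptor that binds IGFBP3, fell by 0.29 ± 0.09 (edgeR adjusted p = 0.0495), lost in 19 of 24 fits and with GC correction (edgeR adjusted p = 0.209). Igf2bp2, which binds Igf2 mRNA, was higher with celecoxib than with rofecoxib (0.34 ± 0.12, edgeR adjusted p = 0.0352), which was lost in 7 of 24 fits and with GC correction (edgeR adjusted p = 0.0686). Igfbp1 had 1 count in all 24 libraries and was not tested. Igfals, the acid-labile subunit that joins IGFBP3 in plasma, was low at 3.01 ± 2.65 CPM in controls, 1.497 ± 0.77 with celecoxib and 1.38 ± 0.83 with rofecoxib and was not called (edgeR adjusted p = 0.227 and 0.102).

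Among 16 proteases of binding proteins and their inhibitors, 1 rose with celecoxib. None was called with rofecoxib by edgeR, where 6 had an unadjusted p under 0.05 and DESeq2 called 1. Stc2, stanniocalcin 2, an inhibitor of PAPP-A, rose from 12.3 ± 3.29 to 20.3 ± 4.80 CPM with celecoxib (log2 fold change 0.73 ± 0.15, edgeR adjusted p = 0.0223), against 12.0 ± 1.99 with rofecoxib. Without celecoxib library 5 the rise was 0.64 and did not pass (edgeR adjusted p = 0.0591). It was higher with celecoxib than with rofecoxib by 0.76 ± 0.15 (edgeR adjusted p = 0.0025), and this passed in 24 of 24 leave-one-out fits. Pappa itself, the protease of IGFBP4 and IGFBP5, was at 1.99 ± 0.44, 2.17 ± 0.39 and 1.96 ± 0.36 CPM and was not called (edgeR adjusted p = 0.720 with celecoxib and 0.936 with rofecoxib). Between the drugs, Mmp14, a membrane metalloprotease, was higher with celecoxib (0.21 ± 0.06, edgeR adjusted p = 0.0138), and Adamts1, a secreted metalloprotease, was lower (-0.62 ± 0.22, edgeR adjusted p = 0.0408; lost in 10 of 24 fits). With GC correction Mmp14 and Adamts1 did not pass (edgeR adjusted p = 0.0976 and 0.0781).

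Of 5 CCN proteins, matricellular relatives of the binding proteins, Nov, which encodes CCN3, rose with celecoxib (0.33 ± 0.08, edgeR adjusted p = 0.0391; lost in 12 of 24 fits). None was called with rofecoxib by edgeR, where 2 had an unadjusted p under 0.05 and DESeq2 called 1. Cyr61, which encodes CCN1, was lower with celecoxib than with rofecoxib (-1.14 ± 0.26, edgeR adjusted p = 0.0057), at 471 ± 208 CPM in controls, 345 ± 129 with celecoxib and 757 ± 226 with rofecoxib. Of 9 genes of the growth hormone axis, none was called with celecoxib by edgeR or DESeq2, and 2 had an unadjusted edgeR p under 0.05. With rofecoxib 1 of the 9 was called by edgeR, 7 had an unadjusted p under 0.05, DESeq2 called 2, and the median log2 fold change was -0.25. The call was Jak2, the kinase of the growth hormone receptor, which rose (0.18 ± 0.05, edgeR adjusted p = 0.0471; lost in 15 of 24 fits). Socs1, a suppressor of cytokine signalling, and Stat5b, a transcription factor that JAK2 activates, were higher with celecoxib than with rofecoxib (0.77 ± 0.23 and 0.15 ± 0.05, edgeR adjusted p = 0.0212 and 0.0281). With GC correction Jak2, Socs1 and Stat5b did not pass (edgeR adjusted p = 0.192, 0.0795 and 0.0966).

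Downstream of IGF1R, 1 of 30 genes from IRS proteins to AKT and mTOR fell with celecoxib and 1 with rofecoxib, and none rose. An unadjusted edgeR p under 0.05 was found for 4 with celecoxib and 17 with rofecoxib, and DESeq2 called 1 and 7. Grb14, an adaptor that inhibits the insulin receptor, fell from 53.9 ± 3.95 to 45.8 ± 1.62 CPM with celecoxib (log2 fold change -0.24 ± 0.05, edgeR adjusted p = 0.0208) and was at 53.9 ± 4.38 with rofecoxib. Without celecoxib library 5 it did not pass (-0.23, edgeR adjusted p = 0.0529). Tsc2, an inhibitor of mTOR signalling, fell by 0.22 ± 0.06 with rofecoxib (edgeR adjusted p = 0.0389), which did not pass in 6 of 24 fits or with GC correction (edgeR adjusted p = 0.125); it is named as the only call with rofecoxib, after its values were seen. Between the drugs 4 of the 30 were higher with celecoxib and 3 lower, near the background of 11.5% and 11.2% of all tested genes. The lower ones were Grb14 (-0.24 ± 0.05, edgeR adjusted p = 0.0029), Irs1, a substrate of both receptors (-0.72 ± 0.25, 0.0412), and Phlpp1, a phosphatase of AKT (-0.14 ± 0.05, 0.0479), the last pair named after their values were seen. Grb14 and Phlpp1 passed with GC correction and Irs1 did not (edgeR adjusted p = 0.00999, 0.0255 and 0.0738), and Irs1 and Phlpp1 were lost in 8 and 15 of 24 fits. Akt1 was higher by 0.24 ± 0.05 and Ptpn1, a phosphatase of the insulin receptor, by 0.16 ± 0.04 (edgeR adjusted p = 0.0029 and 0.0102), with 0.04 and 0.05 after GC correction (edgeR adjusted p = 0.486 and 0.336). Pik3r2, a regulatory subunit of PI3K, was higher by 0.25 ± 0.07 (edgeR adjusted p = 0.0125), and by 0.02 after GC correction (edgeR adjusted p = 0.874).

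Of 20 FOXO factors and targets, which AKT holds down, none was called with celecoxib by edgeR, where 6 had an unadjusted p under 0.05 and DESeq2 called 1. Insr alone was called with rofecoxib, where 6 had an unadjusted p under 0.05 and DESeq2 called 2. With celecoxib against rofecoxib, 1 of the 20 was called higher and 3 lower, beside 11.5% and 11.2% of all tested genes. Between the drugs, Sesn3, a stress-induced sestrin, and Fbxo32, the ubiquitin ligase atrogin-1, were lower with celecoxib (-0.64 ± 0.17 and -0.45 ± 0.14, edgeR adjusted p = 0.0111 and 0.0264), Insr was lower (-0.22 ± 0.08, edgeR adjusted p = 0.0404), and Klf15, a Krüppel-like transcription factor, was higher (0.32 ± 0.11, edgeR adjusted p = 0.0434). Of these, Fbxo32, Insr and Klf15 did not pass with GC correction (edgeR adjusted p = 0.0745, 0.146 and 0.227), or in 4, 8 and 14 of 24 fits. Of 19 imprinted growth genes, Meg3, a maternally expressed noncoding RNA, rose with celecoxib (0.28 ± 0.07, edgeR adjusted p = 0.0370; lost in 9 of 24 fits). Cdkn1c, a maternally expressed inhibitor of the cell cycle, fell by 0.33 ± 0.07 with rofecoxib (edgeR adjusted p = 0.0178), with 0 of 24 fits losing the call but GC correction ending it (edgeR adjusted p = 0.154). Zdbf2, a paternally expressed gene, was lower with celecoxib than with rofecoxib (-0.85 ± 0.23, edgeR adjusted p = 0.0114). The medians of these 7 lists lay between -0.25 and 0.22 on the log2 scale in the 3 comparisons.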

How the data were processed

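The authors deposited whole-number counts per gene for 24 libraries, with Ensembl identifiers and mm9 coordinates. CASAVA 1.8.2, STAR 2.5.1b and mm9 are named in the submitters' processing notes; the counter, the annotation and the step that made library totals nearly equal were not given in the sources used here. Unless strand was used in counting, overlapping genes cannot be told apart.

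Counts were tested in edgeR 4.0.16 (R 4.3.3): filterByExpr, TMM factors (0.959 to 1.03), a robust quasi-likelihood fit to 24 libraries with 1 mean per group and 21 residual degrees of freedom, and Benjamini-Hochberg adjustment over 14451 genes. A gene was called at an adjusted p under 0.05. Each SE equals the size of the fold change (log2) over the square root of F. Only the edgeR fit for celecoxib against control was tested on simulated data, with the same dispersion for all genes. The GC correction, the replicate block and the correlations were not tested in this way. Log2 CPM used a prior count of 2. Lengths and GC content came from GENCODE M21 (GRCm38), matched by Ensembl identifier; GC correction used loess offsets with a span of 0.5 on 14075 genes. Correlations had group means removed and 100000 two-sided permutations within groups. Promoters came from RefSeq on GRCm38.p6 and no coordinates were converted between builds.

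Alternatives were DESeq2 1.42.0, other scalings, no filter, a replicate block, GC correction, 2 groups only and left-out libraries. The members and lists were chosen with earlier results of these data known, and the 80 relations with cell scores after values were seen. All members were named, with up to 4 called genes of each pathway list, and Igfbp1, Igfals, Pappa and H19 whatever their values; a few genes that this rule names are not reported here. The genes most like each member were ranked among those with a mean log2 CPM of at least 3.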

Additional observations from a re-analysis of the deposited data

Results flagged for a closer look

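In 30 groups of 8 libraries (10 genes in 3 groups), 3 held a library far from the others by Dixon's 95% criterion, where chance alone gives about 1 in 20. Igf1 was at 70.0 CPM in celecoxib library 2, and the next celecoxib library was at 43.6 CPM. Igfbp2 was at 62.2 CPM in control library 5, and the next control was at 23.8 CPM. Igfbp2 was at 27.0 CPM in rofecoxib library 5, and the next rofecoxib library was at 14.1 CPM. Without control library 5, the log2 fold change of Igfbp2 with celecoxib changed sign, to 0.18, and with rofecoxib it was -0.26, neither called by edgeR.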

How the results depend on the processing

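Library totals in the deposited counts were made nearly equal by an unknown step, so true depth is not known. The SEs of Igfbp3 and Igfbp2 were the largest of the axis. In controls Igfbp2 averaged 22.5 CPM with a coefficient of variation of 74.4%, and Igf1r 17.1 CPM with 11.5%. With 1 library left out, 565 of 648 values of the 9 members other than Igfbp5 kept direction and side of the threshold, 37 lost a call, 2 gained one and 44 changed sign; under the other settings 209, 19, 1 and 14 of 243 did. The cause of the changes below was not tested. Genes called with celecoxib against control numbered 88 with 2 groups only, 481 by DESeq2's Wald test, 86 without filter and 353 with replicate block and GC correction, and 42 to 312 with 1 library left out (lowest without celecoxib 5, highest without celecoxib 2). For rofecoxib against control they numbered 461, 1575, 294 and 144 in the same order, 183 with GC correction, 215 without control 6 and rofecoxib 2, and 170 to 1121 with 1 library left out (lowest without control 7, highest without control 4). Between the drugs they numbered 1326 with GC correction, 1439 with the block added and 2147 to 3739 with 1 left out. Members called, a count that holds Igfbp5, ran from 0 to 1 for celecoxib against control with 1 library left out; it was 0 without celecoxib 5, where Igfbp5 was not called either. With rofecoxib, 1 was called under GC correction, no filter, the replicate block, the block with GC correction and without control 6 and rofecoxib 2, and 1 to 3 with 1 left out. Between the drugs 1 was called with 2 groups only, no filter and without control 6 and rofecoxib 2, 0 with GC correction with or without the block, and 1 to 3 with 1 left out.

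Same-numbered libraries did not deviate together (r from -0.39 to 0.32 in 24 pairs, 10 over 0.1). In 5 of these 24 pairs, the first library was nearest to its own number in the other group. The numbers were therefore not taken to pair the libraries. The replicate block alone gave 187, 653 and 3193 called genes; Igfbp6 with rofecoxib and Igf1r between the drugs did not pass (edgeR adjusted p = 0.0666 and 0.0700), and Igfbp4 and Igfbp6 between the drugs did (0.0147 and 0.0348).

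Some values changed sign, most of them near 0 with all libraries, though Igfbp2 with celecoxib was at -0.23. With celecoxib against control, Igf1r was 0.0026 with block and GC correction, and Igfbp6 was -0.016 with library totals, -0.0082 with the block, -0.046 with GC correction, -0.065 with both and -0.00044 with 2 groups only. With rofecoxib against control, Igf2r was -0.010 without control 6 and rofecoxib 2, and Igfbp7 was 0.0082 with the block, 0.135 with GC correction and 0.139 with both. Between the drugs, Igf1 was 0.184 with GC correction and 0.165 with the block added, Igfbp7 -0.096 and -0.099, and Igfbp5 0.026 without control 6 and rofecoxib 2. With 1 library left out, the ranges that crossed 0 with celecoxib were -0.052 to 0.025 for Igf1r, -0.035 to 0.017 for Igf2r, -0.38 to 0.18 for Igfbp2 and -0.10 to 0.066 for Igfbp6. With rofecoxib they were -0.0093 to 0.030 for Igf2r and -0.027 to 0.046 for Igfbp7, and between the drugs -0.16 to 0.057 for Igf1, -0.047 to 0.0037 for Igf2r and -0.061 to 0.026 for Igfbp5. Pairs of members that passed numbered 0 without the 2 farthest libraries. With median transcript lengths, control levels per kilobase were 33.7 for Igf1, 44.9 for Igf2, 8.57 for Igf1r, 143 for Igf2r, 596 for Igfbp4 and 206 for Igfbp5.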

Other observations

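The genes whose levels most resembled those of a member among libraries of a group were ranked over 9936 genes by Pearson's r of group-centred log2 CPM in 24 libraries, as a description without a test. Igfbp5 was most like Usp22 (r = 0.82), a histone deubiquitinase, Polr2a (0.77), the large subunit of RNA polymerase II, Rab36 (0.76) and Klf11 (0.76), among the genes reported here. It was least like Snx25 (-0.77), Bod1 (-0.76) and Rwdd1 (-0.76). Igfbp6 was most like Gpnmb (0.87), a glycoprotein of macrophages, and Irak3 (0.85). Igfbp3 was most like Emcn (0.87), an endothelial sialomucin that is also 1 of the 14 endothelial markers above, and Gpr116 (0.85). Igf1r was most like Anapc1 and Lnpep (both 0.93), and Igf2r most like Aldh1l2 (0.90) and 6230409E13Rik (0.86). Igf2 was most like Sema3g (0.89) and Nrip2 (0.82), and Igf1 most like Eaf1 (0.80) and Gda (0.79). Igfbp2 was most like Stoml1 (0.81) and Micall2 (0.79), Igfbp4 most like Shc2 and Rbm34 (both 0.71), and Igfbp7 most like Hspb2 and H13 (both 0.86). How the libraries were batched in preparation is not known, and genes are not independent of each other.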
